A study of Homo sapiens with 2 samples.

Results

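The cell-cycle cyclins of types A, B, D, E and F were examined in SUB1-depleted PC3 cells. The set held 10 genes (CCNA1, CCNA2, CCNB1, CCNB2, CCND1, CCND2, CCND3, CCNE1, CCNE2 and CCNF) of the 30482 named on the array, and they were taken by gene name with all 17 of their probes of 41000. PC3 is an established prostate cancer cell line. Cells received Non-T siRNA (non-targeting), SUB1 siRNA 1 or SUB1 siRNA 2, were transfected a second time, and were harvested 72 h after the first transfection. Total RNA was hybridised to 2 dual-colour Agilent whole human genome arrays, each with Non-T siRNA in Cy3 and 1 of the SUB1 siRNAs in Cy5, without a dye swap. Thus each SUB1 siRNA was measured on 1 array, and dye bias and knockdown cannot be told apart for a single probe. Both ratios have Non-T siRNA as the denominator, and the sources used here do not give whether 1 RNA extract served both arrays. SUB1 encodes a transcriptional coactivator and was the targeted gene.

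A cyclin binds a cyclin-dependent kinase (CDK) and turns it on, and most cell-cycle cyclins are made and destroyed once per cell cycle. D-type cyclins pair with CDK4 and CDK6 in G1, E-type cyclins with CDK2 at entry into S phase, cyclin A with CDK2 and CDK1 through S and G2, and B-type cyclins with CDK1 in mitosis. Cyclin F does not act through a CDK and is the substrate-recognition subunit of an SCF ubiquitin ligase.

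All values below are log2 ratios of SUB1 siRNA over Non-T siRNA after loess normalisation, in which −1 is a 2-fold lower level, unless a normalised intensity (arbitrary units, comparable within a probe only) is named. A probe passed the filter when a share of 0.5 or more of its spots stood well above background in 1 channel or both, on each array. The brightest such probe stood for its gene. In total, 8 of the 10 cyclins and 11 of their 17 probes passed, beside 19218 of all genes. No gene spot was saturated. SUB1 itself was at −3.30 and −3.26 with siRNA 1 and siRNA 2, with an adjusted p of 0.0248 in limma, and its other 3 probes ranged from −3.75 to −1.57. Under 6 of 12 other ways of processing SUB1 no longer passed an adjusted p of 0.05, while its ratios stayed between −3.35 and −2.87. In the Non-T channel all 4 epithelial markers (KRT8, KRT18, EPCAM and CDH1, the last at 120 and 121 normalised intensity units) were well above background, whereas the prostate luminal gene TMPRSS2 and the leukocyte marker PTPRC were not. The luminal gene KLK2 (105 and 94.4) passed at low normalised intensity. Of the KLK3 probes, 1 of 3 was well above background and was bright, at 20154 and 19909 normalised intensity units. The endothelial marker PECAM1 (126 and 129) and the fibroblast marker COL1A1 (144 and 138) were at a level like that of CDH1. COL1A1 had ratios of 0.66 and 0.45 and PECAM1 of −0.11 and −0.37, and their part in any cyclin value was not tested.

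The mitotic cyclins had the lowest ratios of the set. CCNB1 and CCNB2 were at least 2-fold lower with both SUB1 siRNAs, and CCNA2 was lower by a smaller amount. This order depended on the processing of the dim CCNA2 probe. With the processed signals of the scanner software and siRNA 2, CCNA2 was at −1.95, CCNB1 at −1.05 and CCNB2 at −1.81. The promoters of CCNB1, CCNB2 and CCNA2 are shown because all 3 genes were lower with both siRNAs. The promoter of CCNE1 is shown beside them as an example of a cyclin with ratios of opposite sign. CCND3 also had ratios of opposite sign and is not shown, and the CCAAT boxes in its promoter windows are given below. Each line gives the 150 bases before the RefSeq gene start in GRCh38.p14, 5′ to 3′ on the strand of the gene. Capitals mark matches to the CCAAT box (CCAAT, bound by NF-Y) or to the cell cycle genes homology region (CHR, here TTTGAA or TTCGAA, bound by MuvB complexes), on either strand.
CCNB1, chr5:69167000-69167149, plus strand: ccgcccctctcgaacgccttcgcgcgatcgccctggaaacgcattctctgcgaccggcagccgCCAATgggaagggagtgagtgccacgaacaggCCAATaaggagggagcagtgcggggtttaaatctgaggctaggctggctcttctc
CCNB2, chr15:59104996-59105145, plus strand: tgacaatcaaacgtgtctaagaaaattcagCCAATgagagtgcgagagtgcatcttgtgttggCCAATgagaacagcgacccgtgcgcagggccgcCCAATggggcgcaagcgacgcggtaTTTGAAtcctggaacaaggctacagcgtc
CCNA2, chr4:121823884-121824033, minus strand: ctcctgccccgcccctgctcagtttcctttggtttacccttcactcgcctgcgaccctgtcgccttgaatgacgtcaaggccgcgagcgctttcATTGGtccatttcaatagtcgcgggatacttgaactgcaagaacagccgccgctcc
CCNE1, chr19:29811841-29811990, plus strand: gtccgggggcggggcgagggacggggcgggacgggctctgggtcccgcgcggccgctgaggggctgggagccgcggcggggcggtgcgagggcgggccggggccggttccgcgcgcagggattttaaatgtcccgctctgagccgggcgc

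Motif words were counted in windows from 250 bases before to 50 bases after the start. CCNB2 held 4 CCAAT boxes, at 244, 120, 87 and 54 bases before the start, and 1 CHR word at 29 bases. CCNB1 held CCAAT boxes at 87 and 55 bases before the start and no CHR word. CCNA2 held 1 CCAAT box, on the opposite strand at 56 bases. Both B-type cyclins thus carried a CCAAT box at 87 bases, and a nearer one at 55 bases in CCNB1 and 54 bases in CCNB2. CCNF, a further cyclin with ratios below 0 on both arrays, held 4 CCAAT boxes (250, 239, 210 and 106 bases) and CHR words at 233 and 85 bases. CCNE1 and CCNA1 held none of these words, and of the 3 CCND3 windows 2 held 1 CCAAT box each. Over all 35116 promoter windows of the table, 34.6% held at least 1 CCAAT box, 10.8% at least 2, and 0.991% at least 4, and 16.4% held a CHR word. The E2F words TTTGGCGC, TTTCGCGC, TTTGCCGC and TTTCCCGC were present in 3.31% of all windows and in none of the 9 windows of the 7 cyclins matched. CCND1, CCND2 and CCNE2 were not matched. No matches overlapped, and TTCGAA reads the same on both strands. Only these exact words were searched, so a window without a match may still hold another form of a CHR or E2F site. A match to these letters is a description of the sequence only.

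CCNB1 encodes cyclin B1, the main mitotic partner of CDK1. Its normalised intensity was 2071 with Non-T siRNA and 978 with SUB1 siRNA 1 on the same array, and 2082 with Non-T siRNA and 1039 with SUB1 siRNA 2 on the other. The Non-T values of the 2 arrays were almost equal. The log2 ratios were −1.08 and −1.002, so that 47.2% and 49.9% of the Non-T level remained. The siRNA 2 value thus sat at the 2-fold line. The mean was −1.04 ± 0.096 (SE moderated by limma over all genes, n = 2 arrays), with an adjusted p of 0.112 in limma. The single probe, for transcript NM_031966, spans 1761 bases of chr5:68507119-68508879 in hg18, the build of the array files, so its 60 bases are split on the genome.

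CCNB2 encodes cyclin B2, which also activates CDK1 and is found mainly at the Golgi. It read 2843 with Non-T siRNA against 1225 with SUB1 siRNA 1, and 2624 with Non-T siRNA against 787 with SUB1 siRNA 2. The siRNA 2 value was the lowest of these. The ratios of −1.21 and −1.74 left 43.1% and 30.0% of the Non-T level. The mean was −1.48 ± 0.155 (moderated SE, n = 2 arrays), with an adjusted p of 0.112 in limma. This probe (NM_004701) lies at chr15:57204431-57204490 on the plus strand of hg18. A further probe under the CCNB2 name, for cDNA AK023404 at chr15:57202412-57202471, lies on the strand opposite to the gene. It was well above background in 1 of the 4 channels only and did not pass, at ratios of 0.01 and −0.16.

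CCNA2 encodes the cyclin A of somatic cells. Its probe was spotted 10 times, at chr4:122959445-122959504 (minus strand, hg18; NM_001237). The normalised intensity was 161 with Non-T siRNA and 107 with SUB1 siRNA 1, and 160 with Non-T siRNA and 91.6 with SUB1 siRNA 2. All the CCNA2 intensities were low. The ratio was −0.59 ± 0.15 (SD over 9 spots of 1 array) with siRNA 1 and −0.81 ± 0.13 (SD over 10 spots) with siRNA 2. Every spot was below 0, with ranges of −0.83 to −0.31 and −1.03 to −0.57, but spots of an array are technical repeats. In limma the mean was −0.70 ± 0.108 (moderated SE, n = 2 arrays), with an adjusted p of 0.113. CCNA2 did not reach 2-fold on either array, but with the processed signals of the scanner software its ratios were −1.10 and −1.95. The offset added before the logarithm draws ratios of dim probes towards 0, and with an offset of 0 the CCNA2 siRNA 2 ratio was −1.44.

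CCNA1, the cyclin A gene known for its role in male meiosis, was not well above background in any channel. Its normalised intensities were 65.3 and 66.1 with Non-T siRNA, 65.7 with siRNA 1 and 61.1 with siRNA 2, so no difference was detectable. CCNF had 1 probe that passed, at chr16:2447223-2447282 (plus strand, hg18), with normalised intensities of 104 (Non-T siRNA) and 89.7 (siRNA 1) and of 113 (Non-T siRNA) and 95.6 (siRNA 2). Its ratios of −0.22 and −0.24 were close to each other. Their mean was −0.23 ± 0.095 (moderated SE, n = 2 arrays), with an adjusted p of 0.264 in limma. The other CCNF probe was not well above background in any channel.

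**Figure D1:**
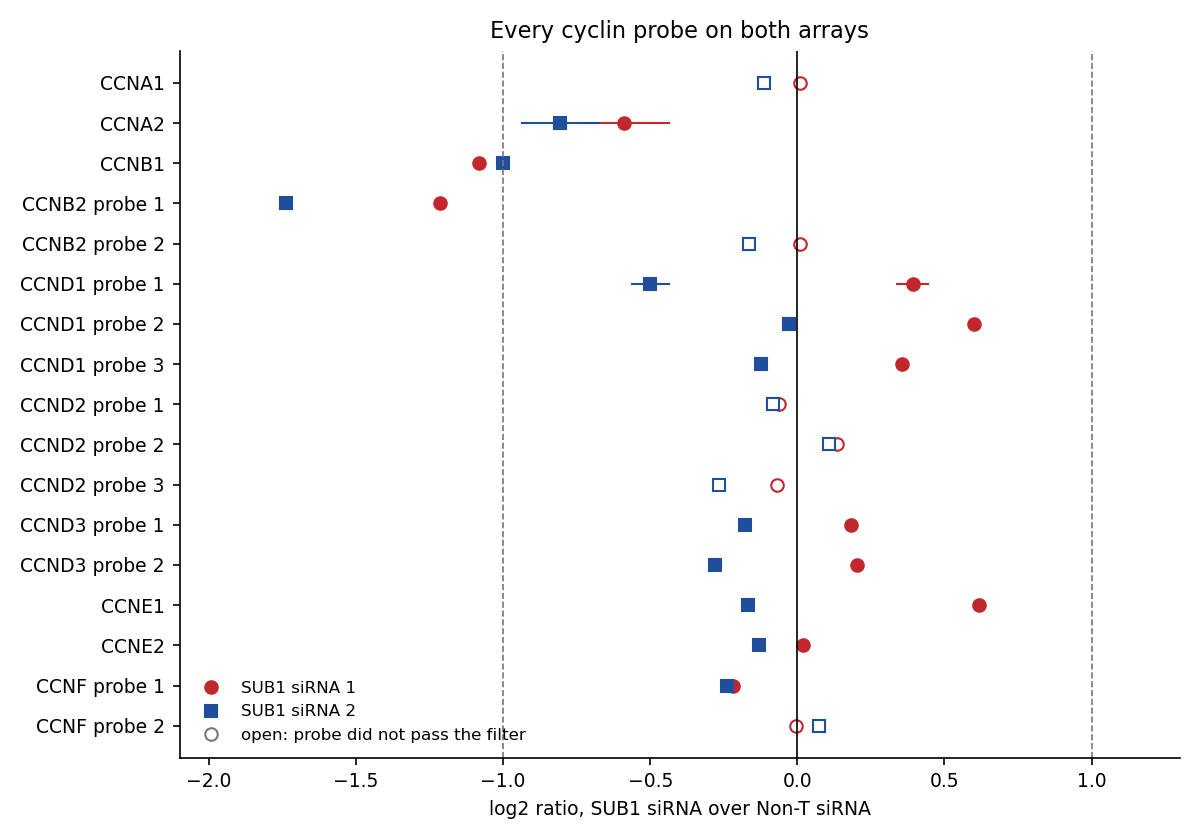
Log2 ratio (x axis) of each of the 17 cyclin probes with SUB1 siRNA 1 (circles) and SUB1 siRNA 2 (squares); open symbols are probes that did not pass the filter, bars are the SD over repeated spots of 1 array, and dashed lines mark 2-fold. Only the probe of CCNB1 and the first probe of CCNB2 lie at or beyond the lower line with both siRNAs, at −1.08 and −1.002 and at −1.21 and −1.74.

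The D-type cyclins, which link growth signals to the RB pathway through CDK4 and CDK6, showed another pattern. CCND1, encoding cyclin D1, read 1505 with Non-T siRNA and 1975 with SUB1 siRNA 1, and 1628 with Non-T siRNA and 1151 with SUB1 siRNA 2. The siRNA 1 value was above both Non-T values and the siRNA 2 value below both. The ratios of its brightest probe, at chr11:69177414-69177473 (plus strand, hg18), were 0.39 ± 0.052 and −0.50 ± 0.063 (SD over 10 spots of each array). The spots of the 2 arrays did not overlap, at 0.32 to 0.52 and −0.57 to −0.40. Spots of an array are technical repeats, so this describes the arrays and is no test between the siRNAs. The 2 other CCND1 probes, at other positions of the same transcript (NM_053056), gave 0.60 and 0.36 with siRNA 1 but only −0.03 and −0.13 with siRNA 2. Thus all 3 probes were above 0 with siRNA 1 and below 0 with siRNA 2, while the size of the siRNA 2 value differed between probes. The mean over siRNAs was −0.05 ± 0.231 (moderated SE, n = 2 arrays), with an adjusted p of 0.913 in limma. This mean hides 2 ratios of opposite sign.

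CCND3, encoding cyclin D3 and read by a probe at chr6:42011171-42011230 (minus strand, hg18), showed the same signs at a smaller size. It read 566 with Non-T siRNA and 643 with siRNA 1, and 565 with Non-T siRNA and 499 with siRNA 2. Both Non-T values lay between the knockdown values. Its ratios were 0.18 and −0.18, and a second, dimmer probe gave 0.20 and −0.28; with median centring in place of loess the siRNA 2 ratio was 0.01. The mean was 0.002 ± 0.128 (moderated SE, n = 2 arrays), with an adjusted p of 0.993 in limma. CCND2, encoding cyclin D2, had 3 probes and none was well above background in any channel, with normalised intensities from 55.6 to 69.9. No level of CCND2 was detectable on these arrays.

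The E-type cyclins drive CDK2 at the G1/S boundary. CCNE1, encoding cyclin E1 and probed at chr19:35006946-35007005 (plus strand, hg18), read 680 with Non-T siRNA and 1042 with siRNA 1, and 724 with Non-T siRNA and 645 with siRNA 2. The siRNA 1 value was the highest of the 4 by a wide margin. The ratio was 0.62 with siRNA 1, the highest of the cyclins that passed, and −0.17 with siRNA 2 (0.04 with median centring). The mean of 0.22 ± 0.208 (moderated SE, n = 2 arrays) had an adjusted p of 0.570 in limma. CCNE2, encoding cyclin E2, was well above background in the SUB1 siRNA channel of both arrays and in neither Non-T channel. Of all gene spots, 67.2% (siRNA 1) and 64.5% (siRNA 2) were well above background in the SUB1 siRNA channels. In the Non-T channels this was 54.3% on each array. The normalised intensities of CCNE2 were 91.1 with Non-T siRNA and 92.3 with siRNA 1, and 97.0 with Non-T siRNA and 88.5 with siRNA 2. No difference was detectable at this level, and the ratios were 0.020 and −0.13 (the siRNA 1 ratio was below 0 under 3 of 11 alternatives), with an adjusted p of 0.780 in limma.

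**Figure D2:**
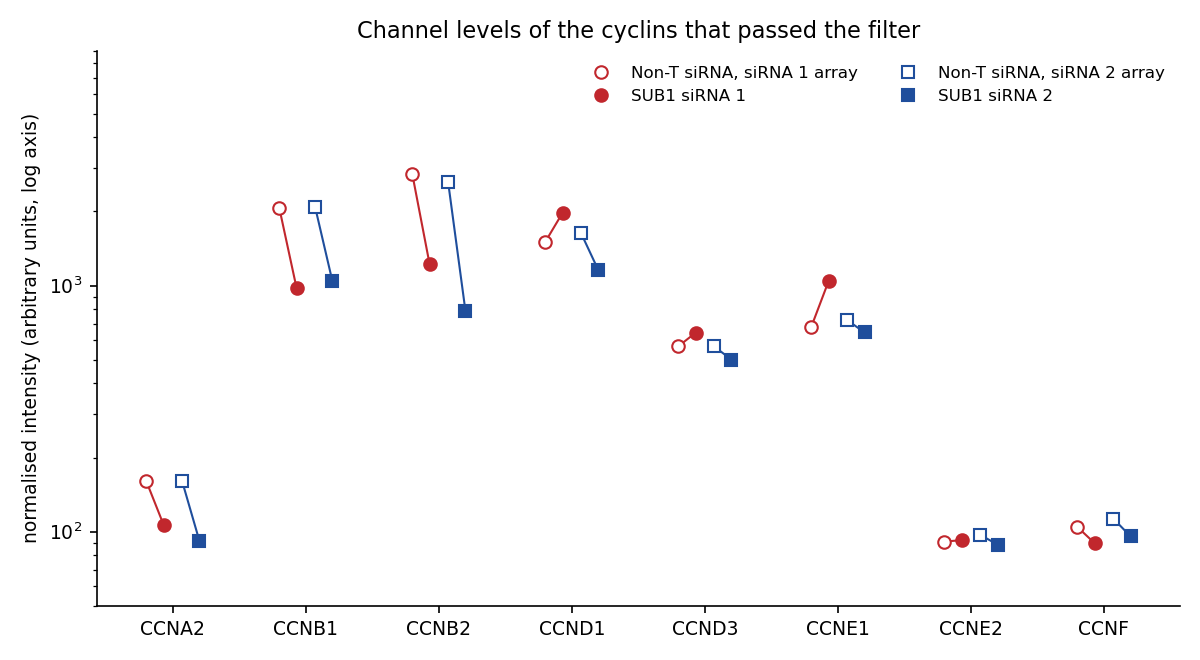
Normalised intensity (y axis, log scale) of the 8 cyclins that passed the filter, with Non-T siRNA (open) joined to SUB1 siRNA (filled) of the same array, red circles for the siRNA 1 array and blue squares for the siRNA 2 array; levels compare within a gene only. The CCNB1 lines run down on both arrays, to 978 and 1039, whereas the CCND1 lines run up to 1975 with siRNA 1 and down to 1151 with siRNA 2.

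Counted by the 2-fold rule, 2 of the 8 cyclins were lower with siRNA 1, beside 0.609% of all genes. With siRNA 2 also 2 of 8 were lower, beside 1.07% of all genes, and the 2 genes were CCNB1 and CCNB2 each time. At least 2-fold lower with both siRNAs were 2 of 8 cyclins and 0.14% of all genes. No cyclin was 2-fold higher with siRNA 1 or siRNA 2, beside 0.208% and 0.614% of all genes. With median centring CCNB1 (−0.85 and −0.76) did not reach 2-fold on either array, nor did CCNB2 with siRNA 1 (−0.97). In limma 0 of 8 cyclins passed an adjusted p of 0.05, beside 0.0052% of all genes (SUB1 alone). At an unadjusted p under 0.05 in limma, 3 of the 8 cyclins (CCNA2, CCNB1 and CCNB2) passed, beside 4013 of the 19218 genes. The smallest cyclin adjusted p in limma under other settings ranged from 0.0577 to 0.175. The test takes each siRNA as 1 sample and leaves out the spread of the Non-T control. In bulk RNA, fewer cells in a cell-cycle phase and less RNA per cell cannot be told apart.

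The median ratio of the 8 cyclins was −0.10 with siRNA 1 and −0.37 with siRNA 2, beside 0.02 and 0.02 for all genes. Under other processing it ranged from −0.22 to −0.03 and from −0.63 to −0.21, the values nearest 0 being those without the filter, where all 10 cyclins count. The siRNA 2 ratio was below the siRNA 1 ratio for 7 of the 8 cyclins, all but CCNB1, with a median difference of −0.29. Among all genes 50.4% were below, with a median difference of −0.002. By size the differences were −0.89 for CCND1, −0.78 for CCNE1, −0.52 for CCNB2, −0.36 for CCND3, −0.22 for CCNA2, −0.15 for CCNE2, −0.02 for CCNF and 0.08 for CCNB1. Most of the difference for the first 3 lay in the Cy5 channel. For CCND1 the Non-T levels differed between arrays by 0.11 (log2) and the SUB1 siRNA levels by −0.78, for CCNE1 by 0.09 and −0.69, and for CCNB2 by −0.12 and −0.64. For CCND3 the values were −0.002 and −0.36, for CCNA2 −0.003 and −0.22, and for CCNE2 0.09 and −0.06. For CCNF they were 0.11 and 0.09, so the SUB1 siRNA level of CCNF was not lower with siRNA 2. Over all genes the SD of these differences was 0.117 for Non-T siRNA and 0.313 for SUB1 siRNA. With 1 array per siRNA the difference between the siRNAs has no test.

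**Figure D3:**
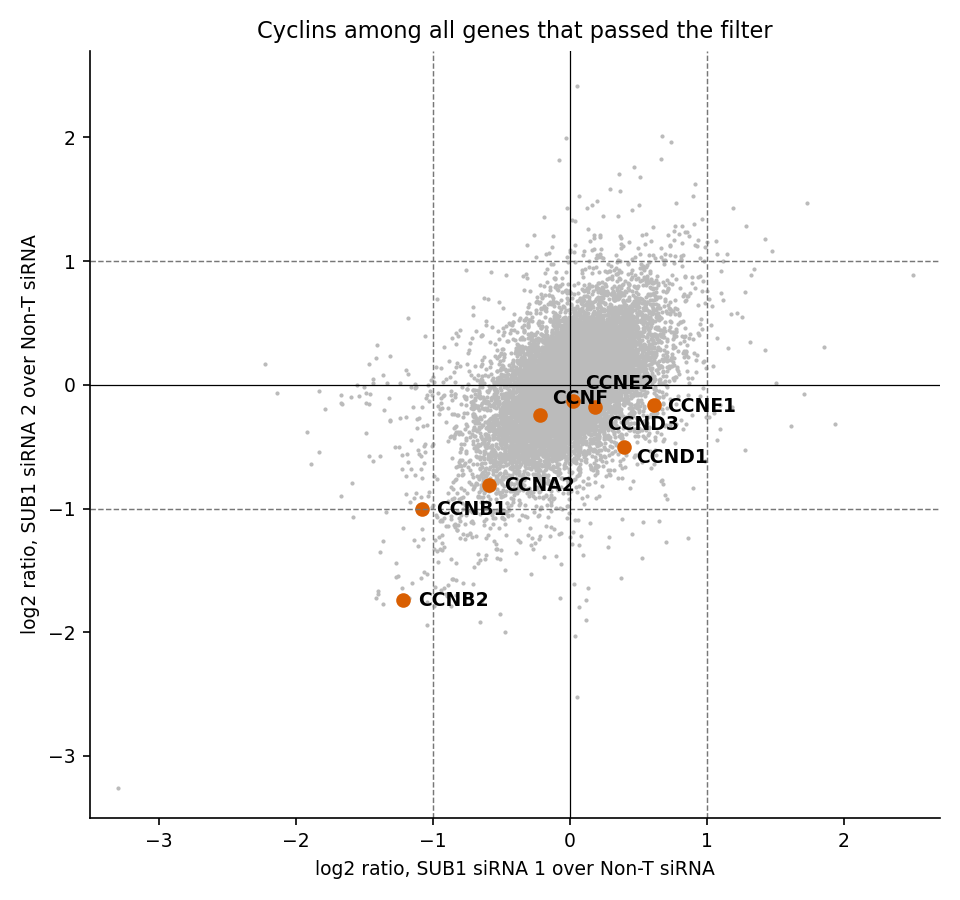
Log2 ratio with SUB1 siRNA 1 (x axis) and SUB1 siRNA 2 (y axis) of 19218 genes (grey) and the 8 cyclins (orange), with dashed lines at 2-fold. CCNB1 and CCNB2 lie in the lower left corner beyond both lines, CCNA2 inside them, and CCND1, CCND3 and CCNE1 to the lower right of the origin.

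The kinases that cyclins activate were then set beside them. CDK1, the partner of cyclins A2, B1 and B2, was at −1.04 with siRNA 1 and −1.76 with siRNA 2 (adjusted p of 0.112 in limma), the order seen for CCNB2. CDK2, the partner of cyclins E and A, was at −0.31 and −0.14. CDK4 was at −0.66 and −0.05 (siRNA 2 above 0 under some alternatives, up to 0.22), and CDK6 at −0.15 (up to 0.06) and −0.84. The second CDK6 probe gave −0.16 and −0.09. Of the 4 kinases 1 (CDK1) was 2-fold lower with both siRNAs, beside the 0.14% of all genes, and with siRNA 1 it was no longer so with the authors' log2 ratios (−0.97) or median centring (−0.80). The medians were −0.48 and −0.49 (−0.30 with siRNA 2 when all probes were averaged).

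The CDK inhibitors were the list with the highest medians, 0.37 and 0.42 over 7 genes (0.10 and 0.21 with all probes of a gene averaged). CDKN1B, encoding p27, was at 0.71 and 1.21 by its brightest probe but at 0.27 and 0.34 by another. It was the 1 inhibitor past 2-fold, with siRNA 2 only, beside 0.614% of all genes 2-fold higher there. With both probes averaged CDKN1B was at 0.78 with siRNA 2. CDKN2D, encoding the CDK4 and CDK6 inhibitor p19, was at −0.48 and −0.71. Of 10 other regulators of cyclin-CDK activity 1 was 2-fold lower, with siRNA 2, beside 1.07% of all genes. This was PKMYT1, a kinase that holds CDK1 inactive, at −0.72 and −1.03 by its brightest probe and −0.28 and −0.23 by another (under 2-fold with siRNA 2 in 4 alternatives, from −0.996 to −0.63), and CDC25C, the phosphatase that activates it, was at −0.80 and −0.83. Like cyclins B1 and B2, both act on CDK1.

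Cyclins A and B are destroyed by the anaphase-promoting complex. Of 19 genes for cyclin degradation 2 were 2-fold lower, with siRNA 2 only, beside 1.07% of all genes. These were UBE2C, its ubiquitin-conjugating enzyme (−0.96 and −1.43), and CDC20, its mitotic activator (−0.93 and −1.21). The medians of this list were −0.14 and −0.08, and 0.07 and 0.06 with median centring. Of 22 measured regulators of cell-cycle transcription, 1 was 2-fold lower with both siRNAs, beside 0.14% of all genes. This was FOXM1, a factor for G2/M genes, at −1.07 and −1.24 (−0.97 to −0.90 with siRNA 1 under 3 alternatives, and so under 2-fold), and MYBL2, which acts with MuvB, was at −0.92 and −1.31. Each of CDC25C, PKMYT1, UBE2C, CDC20, FOXM1 and MYBL2 had an adjusted p of 0.112 in limma, and so had CCNB1 and CCNB2. For CCNB1 and CCNB2 the unadjusted p in limma was 2.2e-04 and 3.9e-04. The Benjamini-Hochberg adjustment can give unlike p-values 1 adjusted value, so the tie is not a likeness between genes.

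The transcription-associated and other cyclins were measured for 13 of 14 genes, CCNT1 being the other. Of the 13, 1 was 2-fold lower with siRNA 1 and none with both siRNAs, beside 0.609% and 0.14% of all genes. This was CCNG1, a p53 target, at −1.16 (−0.98 with median centring) and −0.44. CCNL2, a cyclin linked to splicing, was at 0.24 and 0.38 by its brightest probe, and its other probes gave values of both signs. The medians of this list were −0.03 with siRNA 1, a value that changed sign with the processing, and 0.20 with siRNA 2, which was 0.01 with all probes of a gene averaged.

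**Figure D4:**
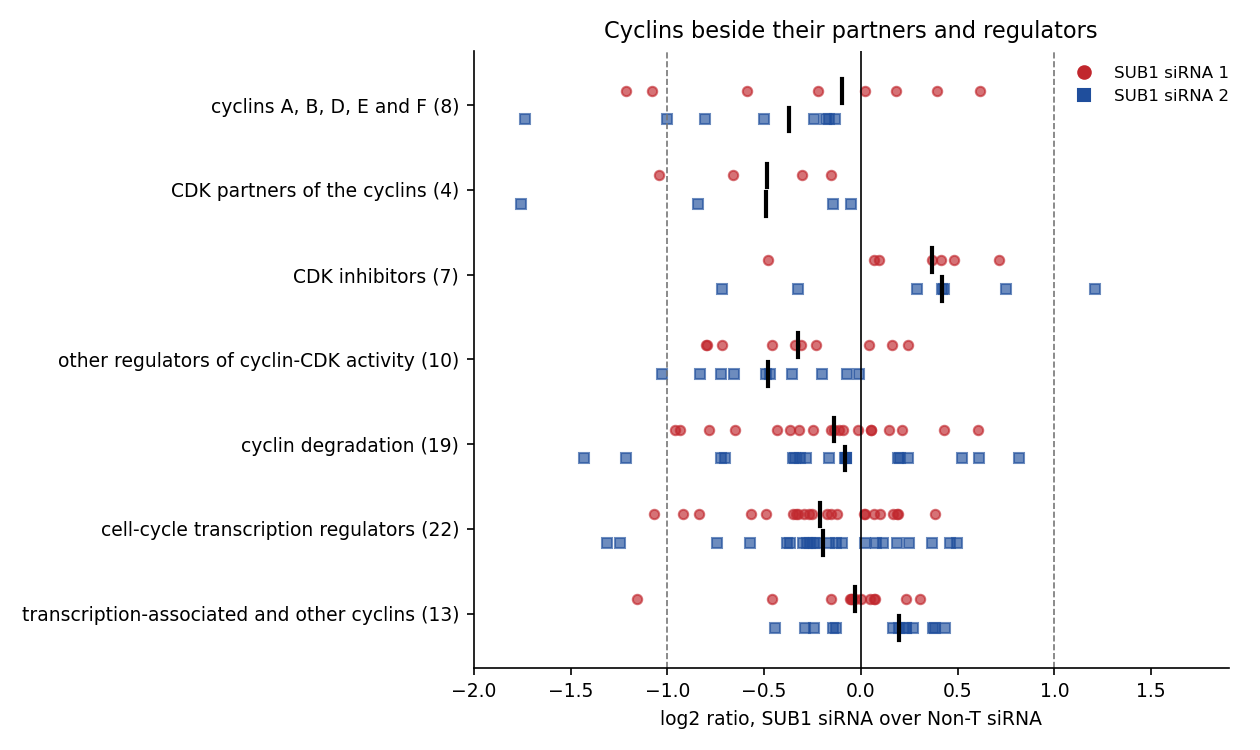
Log2 ratio (x axis) with SUB1 siRNA 1 (circles) and SUB1 siRNA 2 (squares) of each gene that passed the filter, by list with the number of genes in brackets; black bars are medians and dashed lines mark 2-fold. The cyclins span −1.21 to 0.62 (siRNA 1) and −1.74 to −0.13 (siRNA 2), and the CDK inhibitors have medians of 0.37 and 0.42.

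Genes with the most similar pair of ratios were found by Euclidean distance over the 2 arrays. The search covered genes named through RefSeq (13129 of the 19218 kept) and left out the cyclins of this set. The nearest to CCNB1 were TROAP (−1.01 and −0.99), CENPH (−1.09 and −0.90) and COL13A1 (−1.14 and −0.92), and 14 genes lay within 0.2. The nearest to CCNA2 were TCAF2, RFC5 and MELK, with 109 genes within 0.2. For CCND1 they were RABGAP1L (0.34 and −0.49), MAP2K6 (0.33 and −0.47) and MT1H (0.38 and −0.43), of 89 genes within 0.2. CCNE2 lay near no change, with 3093 of the genes searched within 0.2, RGR, ELAC2 and HERC1 being the nearest. Over only 2 arrays such likeness is a description.

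The cyclin ratios were recomputed under 12 other ways of processing. Of these, 6 gave every cyclin a new ratio, 2 changed the ratios of some cyclins, and 4 (other eBayes priors and filters) leave a ratio as it is. In the 6, CCNA2, CCNB1, CCNB2 and CCNF remained below 0 with both siRNAs. Over all 12, CCND1 remained above 0 with siRNA 1 (0.38 to 0.63) and below 0 with siRNA 2 (−0.51 to −0.22). CCNB2 ranged from −1.26 to −0.97 and from −1.81 to −1.50. CCNB1 ranged from −1.11 to −0.85 and from −1.05 to −0.76. The widest ranges were those of the dim probes of CCNA2 (−1.95 to −0.77 with siRNA 2) and CCNF (−0.77 to −0.23 with siRNA 2).

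**Figure D5:**
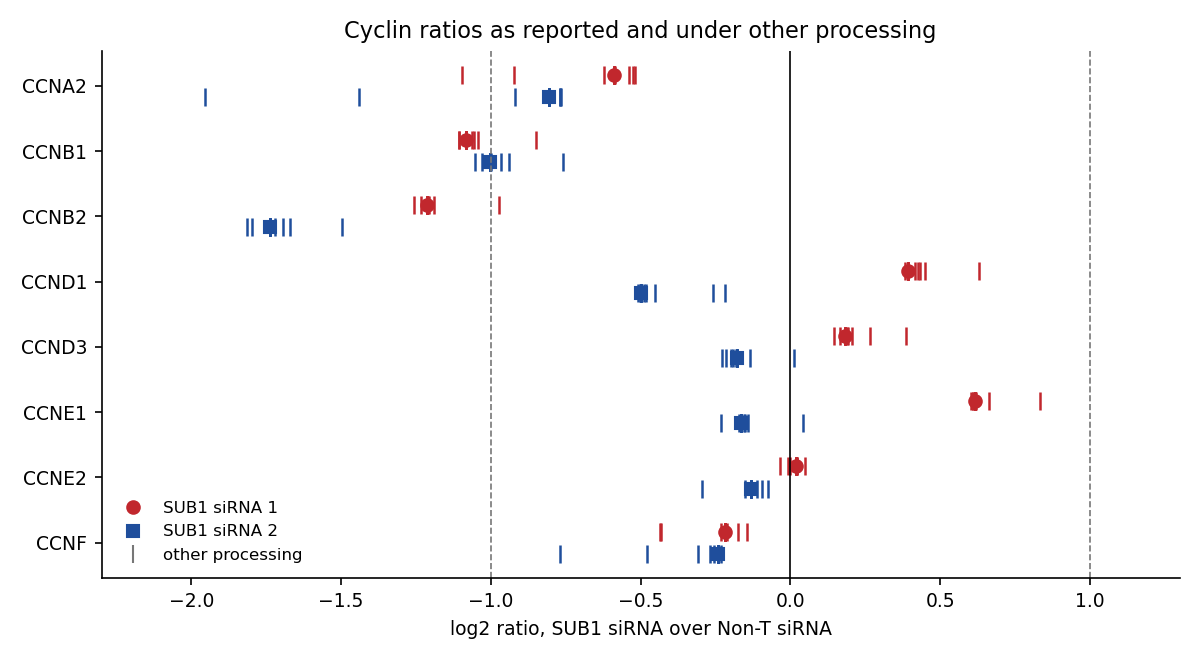
Log2 ratio (x axis) of the 8 cyclins with SUB1 siRNA 1 (red, circle as reported) and SUB1 siRNA 2 (blue, square as reported); ticks are the values under other processing and dashed lines mark 2-fold. Values of CCNB1 with siRNA 2 scatter about the lower line from −1.05 to −0.76, and those of CCND1 stay on opposite sides of 0.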

How the data were processed

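Expression was measured on 2 dual-colour arrays (1 per SUB1 siRNA duplex, the other channel being Non-T siRNA), both on 1 slide, which were taken as 2 independent knockdowns. The authors deposited Agilent Feature Extraction 9.5.1.1 output with the intensity of each spot and its local background per channel, before normalization, and the software's processed intensity. They also deposited a table of log2 ratios normalized by loess on each array, per the paper's methods with the package agilp. Its direction was set against the scanner files (Pearson correlation across probes 0.958 and 0.970, with array medians of -0.01 and -0.01), its log2 scale is taken from the methods, and it served as an alternative.

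Mean spot intensities were corrected by normexp (offset 50) with the median local background, control spots were dropped, and a loess fit with a span of 0.3 was applied per array (limma 3.58.1, R 4.3.3). Spots flagged as outliers (112 and 100) were left out and the spots of a probe were averaged. Channel levels were scaled between arrays with the Aquantile method. The filter kept 25673 of 41000 probes. Names came from a RefSeq table of GRCh38.p14 for 13129 of the 19218 genes kept, and from the array files for the others. Probe coordinates are those in the file headers' build, hg18; exons were not annotated here. Promoters came from RefSeq (GRCh38.p14).

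A gene was counted as changed at an absolute fold of 2 per array, as in the paper's methods, with no test for 1 array. In limma an intercept model (lmFit, then eBayes) tested whether the mean of both arrays differs from 0, adjusted by Benjamini-Hochberg over all 19218 genes. Its SEs and p-values rest on the spread between these 2 samples, which eBayes draws towards the spread of all genes. The number of arrays limits the precision. The scripts were tested on simulated data. The cyclins, the lists of partners and regulators, the motif words and the rule for named genes were chosen with earlier results of these data known. Named were all 10 cyclins, SUB1, CDK1, CDK2, CDK4 and CDK6, list members 2-fold changed with both siRNAs, the 2 largest absolute means of each list, and the 3 genes nearest to CCNB1, CCNA2, CCND1 and CCNE2. Of the genes used to check the cell line, 2 are not reported here.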

Additional observations from a re-analysis of the deposited data

Results flagged for a closer look

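CCND1, CCND3, CCNE1 and CCNE2 had ratios of opposite sign with the 2 SUB1 siRNAs, 4 of 8 cyclins beside 31.6% of all genes. Both ratios have Non-T siRNA as denominator. The log2 ratios were 0.39 with siRNA 1 and -0.50 with siRNA 2 for CCND1, 0.18 and -0.18 for CCND3, 0.62 and -0.17 for CCNE1, and 0.020 and -0.13 for CCNE2. With 1 array per siRNA the difference was not tested. For CCND1 all 3 probes had these signs, and for CCND3 both probes did. With median centring the signs were the same for CCND3 (0.38 and 0.01), CCNE1 (0.83 and 0.04) and CCNE2 (-0.007 and -0.15), and opposite for CCND1. For CCNE2 they were also the same with median spot signals and with the authors' log2 ratios. The siRNA 2 ratio was the lower under every alternative that measured these genes, with differences of -0.93 to -0.67 for CCND1 and -0.83 to -0.75 for CCNE1 on the log2 scale. The values of CCNE2 come from a probe that was not well above background in the Non-T channel of either array.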

How the results depend on the processing

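Of 357 comparisons of a result with an alternative, 322 remained on the same side of the 2-fold or adjusted p threshold with the same sign. For 5 ratios of a single siRNA the side was kept with another sign (CCND3 and CCNE1 with siRNA 2 under median centring, CCNE2 with siRNA 1 under 3 alternatives). A further 5 comparisons, of the mean ratios of CCND1 and CCND3, also changed sign, and the adjusted p in limma stayed over 0.05. Without background correction, with median spot signals and with the authors' log2 ratios, 1 cyclin was 2-fold lower with siRNA 2 and 1 with both siRNAs; the CCNB1 siRNA 2 ratio was then -0.998, -0.97 and -0.94. With median centring 0 cyclins were 2-fold lower with siRNA 1, 1 with siRNA 2 and 0 with both. Genes past an adjusted p of 0.05 in limma (1 as reported, SUB1) numbered 0 under those 4 settings, with processed signals and with a normexp offset of 0, an alternative chosen after seeing the data; 3881 to 5707 genes then had an unadjusted p under 0.05. With processed signals 3 cyclins were 2-fold lower with siRNA 1, 3 with siRNA 2 and 3 with both, CCNA2 being among them. With a normexp offset of 0, 3 were 2-fold lower with siRNA 2 and 2 with both. The median cyclin ratio with siRNA 2 was -0.63 with processed signals, -0.25 with median centring, -0.24 with all probes averaged and -0.21 with no filter. The mean ratio of CCND1 was 0.19 with median centring and 0.12 with all probes averaged. That of CCND3 was -0.035 with median spot signals, -0.017 with the authors' ratios and -0.018 with all probes averaged. Leaving out 1 array gave means of -0.50 to 0.39 for CCND1, -0.18 to 0.18 for CCND3, -0.17 to 0.62 for CCNE1 and -0.13 to 0.020 for CCNE2, with no test. The cause of these changes was not tested, other than that leaving out an array leaves the ratio of the other.

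Median centring moved the median of all genes to 0.13 and 0.12, and relative to it CCNB1 was at -0.98 and -0.88, CCNB2 at -1.10 and -1.62, CCND3 with siRNA 2 at -0.11 and CCNE1 with siRNA 2 at -0.08. The share of 2-fold changed genes that were higher was 25.5% and 36.5% as reported, 71.0% and 72.5% with median centring, 72.3% and 67.7% with processed signals, 52.4% and 53.4% with a normexp offset of 0, and 36.7% and 47.7% with the authors' ratios. The slide as a block was not run because both arrays lie on 1 slide. The ratio within each array already pairs SUB1 siRNA with Non-T siRNA, so no further replicate block was fitted. Signal over background limits CCNA2, CCNE2 and CCNF, and CCNA1 and CCND2 were not well above background.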
